A study of Mus musculus with 4 samples.

Results

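Genes of the proteasome, the protease that degrades most short-lived and damaged proteins of the cell, were followed on 4 oligonucleotide arrays of mouse embryonic 3T3 fibroblasts. Members were all genes with a symbol of Psm, one letter from a to g and a number in the probe annotation, without Psmb8 and Psmb10, and each was represented by its probe set of highest mean log2 signal. The rule gave 45 of 18193 named genes. Psme2 has no probe set of its own on the array. The probe set that reads it is annotated with Psme2 and with Psme2b, a protein-coding copy on chromosome 11 in RefSeq, so it is written Psme2/Psme2b, stands outside the counts of the 45 and cannot be assigned to either gene. The members cover more than the label of a constitutive proteasome: Psmb9 (of the immunoproteasome), Psmb11 (of the thymus) and Psma8 (of the testis) replace standard core subunits elsewhere, and 7 members are assembly chaperones.

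The cells are an immortal line. All 4 groups were grown in medium with 10% bovine calf serum, plated at low density for 24 h and then kept overnight in 0.5% serum. Basal cells were harvested at that point, and the other cells received TNF (tumour necrosis factor), a cytokine of inflammation, over 0.5, 2 or 12 h before harvest. The concentration was 10 ng/ml at 0.5 and 12 h; the treatment text of the 2 h array repeats the basal one and names none, so that it counts as TNF-treated by its title. Each group is 1 array and no array of cells kept for the same hours without TNF was analysed here, so there is no spread between replicates, 0 tests were run, and the effects of TNF and of added time in low serum cannot be told apart. Differences are given as ratios of single arrays, and 2 sizes are counted, 2-fold and a smaller one of 0.32 on the log2 scale in either direction (called the small size); neither is a significance.

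The core particle of the proteasome is a barrel of stacked rings, with outer alpha subunits that gate the entry and inner beta subunits that cut proteins. A regulatory particle caps it: its base holds ring-shaped ATPases that unfold the substrate, and its lid removes the ubiquitin tag that marks a protein for destruction. Other caps exist, among them PA28, which opens the barrel without ATPase activity. PA28 alpha and beta (Psme1, Psme2) and the inducible catalytic subunits (Psmb8, Psmb9, Psmb10) are known as interferon-responsive genes that serve the making of peptides for MHC class I.

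The 12 h array separated these caps. Psme1 and the Psme2/Psme2b probe set were above basal at 2 h and further above it at 12 h, Psme4 (the PA200 activator) was below basal at 12 h, and the 31 core, base and lid genes stayed within 0.41 (log2) of basal, with a median of -0.19 at 12 h against -0.21 for all well-measured genes. The starts of 5 genes that this pattern turns on are shown first: Psme1 and Psme2, the latter as 1 of the genes its shared probe set may read, Psmg4 as a chaperone gene whose signal was also higher on each later array, Psme4 as the gene with lower signal and Psmb6 as a core gene near its basal level. The windows are from RefSeq (GRCm38.p6) and hold 250 bases before and 50 after an annotated start, 5′ to 3′ on the gene's strand. They lie at chr14:55578244-55578543 (plus strand, Psme1), chr13:34162714-34163013 (plus, Psmg4), chr14:55590972-55591271 (minus, Psme2, the one of lower start of its windows), chr11:30771525-30771824 (plus, Psme4) and chr11:70525107-70525406 (plus, Psmb6). Capitals mark matches to any of the motifs named in the next paragraph.
Psme1: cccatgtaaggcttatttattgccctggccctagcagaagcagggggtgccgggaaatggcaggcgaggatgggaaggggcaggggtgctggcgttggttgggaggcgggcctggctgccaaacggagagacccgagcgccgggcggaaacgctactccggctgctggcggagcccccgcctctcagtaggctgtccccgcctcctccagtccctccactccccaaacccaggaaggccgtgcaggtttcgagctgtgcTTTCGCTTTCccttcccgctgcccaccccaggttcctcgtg
Psmg4: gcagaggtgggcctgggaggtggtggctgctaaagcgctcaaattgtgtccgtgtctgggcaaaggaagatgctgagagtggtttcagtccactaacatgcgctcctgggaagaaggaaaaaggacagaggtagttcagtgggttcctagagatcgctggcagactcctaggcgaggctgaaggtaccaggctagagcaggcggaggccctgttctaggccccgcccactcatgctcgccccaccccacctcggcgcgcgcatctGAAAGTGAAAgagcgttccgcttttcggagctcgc
Psme2: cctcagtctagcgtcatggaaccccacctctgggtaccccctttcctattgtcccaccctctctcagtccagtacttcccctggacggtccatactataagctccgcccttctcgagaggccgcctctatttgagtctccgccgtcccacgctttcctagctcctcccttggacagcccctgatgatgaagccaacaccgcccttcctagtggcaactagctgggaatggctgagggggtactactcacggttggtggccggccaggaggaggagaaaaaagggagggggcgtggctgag
Psme4: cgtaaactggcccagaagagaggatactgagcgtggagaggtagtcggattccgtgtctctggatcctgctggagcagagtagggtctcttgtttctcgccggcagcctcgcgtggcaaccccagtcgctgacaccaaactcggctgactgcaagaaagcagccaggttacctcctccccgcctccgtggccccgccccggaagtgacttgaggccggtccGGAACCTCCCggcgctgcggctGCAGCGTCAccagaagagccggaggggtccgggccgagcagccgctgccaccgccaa
Psmb6: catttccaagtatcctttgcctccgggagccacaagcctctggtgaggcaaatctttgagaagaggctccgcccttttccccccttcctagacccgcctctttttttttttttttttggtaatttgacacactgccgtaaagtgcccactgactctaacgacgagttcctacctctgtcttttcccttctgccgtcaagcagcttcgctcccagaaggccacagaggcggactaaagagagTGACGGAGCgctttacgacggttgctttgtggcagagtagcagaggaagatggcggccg

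Windows were found for 37 of the 45 members, and matches to 4 motifs, searched on both strands, are given. The core of the interferon-stimulated response element, which interferon regulatory factors bind (GAAA, any 2 bases, and GAAA again), matched in 5 of the 37 genes (13.5%) against 3.99% of 27025 genes with a window. The capitals in the Psme1 and Psmg4 windows are this match, both downstream of the annotated start, at bases 260 to 269 and 266 to 275 of the window. The other 3 genes were Psmb3, Psmd4 and Psmd9, whose log2 ratios at 12 h were -0.21, -0.11 and -0.12. All 3 were below basal, and relative to the array median they were at -0.01, 0.09 and 0.08. The NF-kB consensus matched in 6 of 37 (16.2%, against 9.55%), including Psme4, where it is the first of its capital stretches. The core bound by the proteasome gene activator Nfe2l1 and its relative Nfe2l2 (TGACNNNGC) matched in 6 (16.2%, against 14%); it is the second stretch of Psme4 and the one of Psmb6. CCAAT boxes (CCAAT) were in 14 (37.8%, against 41.1%). The Psme2 window holds none of the 4. In the printed windows no match overlaps another, and a match is a run of letters, not a binding site.

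Array-wide values set the scale for small ratios. The median signal per array ran from 22.1 (basal) to 19.9 (12 h), and the median log2 ratio over all 45101 probe sets was -0.05, -0.12 and -0.20 at 0.5, 2 and 12 h; ratios are given without rescaling, so at 12 h a gene at the array median reads -0.20. A floor of 9.08, the 30th percentile over the 4 arrays, replaced any lower signal. Of the 45 members all passed this floor on at least 1 array, as did 16269 named genes, and 42 had a mean signal above 102, the 75th percentile of all values; the 6792 named genes above that level are called well measured below. Their log2 ratios at 12 h had a median of -0.21 and a scaled median absolute deviation of 0.28, against 0.14 at 0.5 h. The 3' to 5' signal ratio, a check of RNA integrity, ran from 1.21 to 1.26 for Actb and from 0.736 to 0.776 for Gapdh. Of 10 fibroblast markers 7 were above a signal of 102 on some array, among them Col1a1, Vim and Fn1; Thy1, Dcn and Lum were at 20.7 or lower on every array. Their summed signal ran from 28583 to 29227 over the 4 arrays, that of 8 macrophage and leukocyte markers from 223 to 274, with Ptprc, Itgam and Cd3e under the floor throughout and Cd14 alone above 102. The 6 endothelial and 6 epithelial markers summed to 62.7 to 76.6 and 105 to 133. Of 6 genes listed as a check of the TNF response, 5 were past 2-fold above basal at 0.5 h and 6 at 2 h and at 12 h. The exception was Icam1 at 0.5 h (0.17). Among all analysed genes these shares were 2.55%, 2.58% and 2.79%. Of the 6, Nfkbia, encoding the NF-kB inhibitor IkB-alpha, was at 1843, 7476, 5826 and 5134 on the basal, 0.5, 2 and 12 h arrays. The part of TNF in these ratios was not tested.

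By the 2-fold rule none of the 45 members was higher or lower at any of the 3 times, although the rule took 2.55% of all analysed genes as higher and 2.96% as lower at 0.5 h. These shares were 2.58% and 3.6% for the 2 h array, and 2.79% and 5.18% for the 12 h array. For well-measured genes, which the members mostly are, these shares were 0.339% and 0%, 0.545% and 0.191%, and 0.648% and 2.31%, so 0 of 42 lies near the background. The Psme2/Psme2b probe set passed 2-fold at 12 h. By the small size 1 member (Psmb9, near the floor) was higher at 0.5 h and 0 were lower (14% and 18.1% of all analysed genes, 2.93% and 5.11% of well-measured genes). At 2 h 3 were higher, Psme1, Psmg3 and Psmb9, and 0 lower, where 12.9% of all analysed and 3.42% of well-measured genes were higher, and 24.4% and 15.4% lower. At 12 h 3 were higher (Psme1, Psmg4 and Psmd10) and 7 lower (Psma1, Psma4, Psmb11, Psmc1, Psmc3, Psmd7 and Psme4), where 14.1% of all analysed and 4.87% of well-measured genes were higher, and 33.4% and 34.4% lower. That split depends on the scaling. With each array centred on its median, 7 members were higher at 12 h, the former 3 with Psma6, Psmd8, Psme3 and Psmg3, and Psme4 was the 1 that was lower; the shares of well-measured genes were then 9.82% and 18.9%. Centring gave 1 member higher, Psmb9 near the floor, and 0 lower at 0.5 h (4.12% and 2.97% of well-measured genes). At 2 h it gave 4 higher, Psme1, Psmg3, Psmg4 and again Psmb9, and 0 lower (5.58% and 7.76%). Psmb9 is not a well-measured gene, so these shares do not apply to it.

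**Figure D1:**
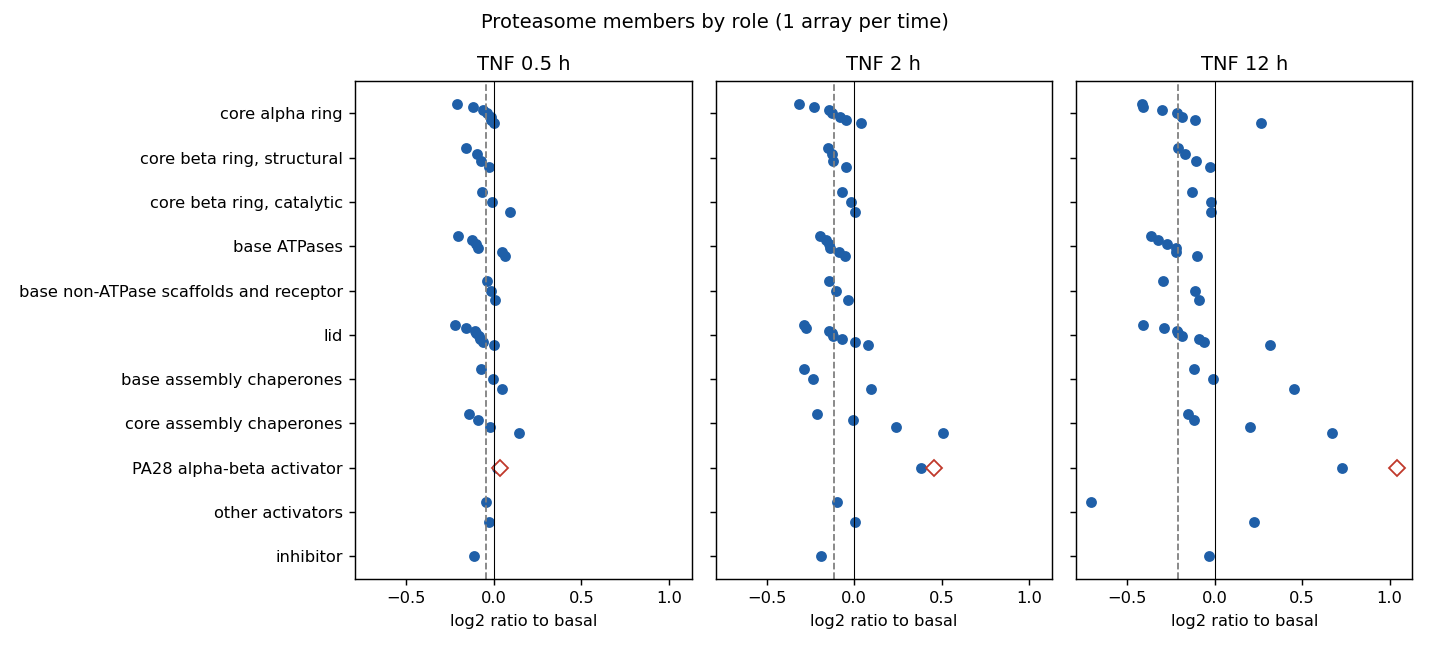
Log2 ratio to basal of the 42 well-measured members at 0.5, 2 and 12 h of TNF, 1 blue point per gene, in rows by role; the open diamond is the Psme2/Psme2b probe set, the dashed line the median of well-measured genes and the solid line no difference. Points lie near the dashed line at 0.5 h. At 12 h the diamond (1.04), Psme1 (0.73), Psmg4 (0.67) and Psmd10 (0.45) stand furthest to the right, while Psme4 (-0.70) stands to the left.

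Psme1 and the Psme2/Psme2b probe set had the largest positive ratios at 12 h in this gene family apart from the inducible subunits left out by the rule. Each value comes from 1 probe set, so no second probe set checks it. Psme1 (1417056_at), encoding PA28 alpha, read 550.5, 558, 716 and 911 on the basal, 0.5, 2 and 12 h arrays, log2 ratios of 0.02, 0.38 and 0.73. It was thus level at 0.5 h, 1.3-fold higher at 2 h and 1.65-fold higher at 12 h. Of the 6792 well-measured genes 78 had a higher ratio at 12 h. The probe set of Psme2/Psme2b (1417189_at), for PA28 beta, read 825, 845, 1132 and 1700.5, log2 ratios of 0.03, 0.46 and 1.04. It kept the same order of arrays and was 2.06-fold above basal at 12 h, with 43 well-measured genes above it. Psme1 and Psme2 are close neighbours on chromosome 14, with 1 protein-coding gene between them in RefSeq. Under median centring, quantile normalization and loess Psme1 stayed short of 2-fold at 12 h, between 0.88 and 0.96 (log2).

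The other caps went in different directions at 12 h. Psme3, encoding the nuclear PA28 gamma, read 169, 164, 169.5 and 198, so that the 12 h array alone was higher, by 0.23 on the log2 scale. Relative to the array median this was 0.43, and 500 well-measured genes had a higher ratio. Its direction was thus that of Psme1, at a smaller size. Psme4 (1426823_s_at), encoding PA200, read 585, 574, 546 and 359. It was level up to 2 h and 1.63-fold lower at 12 h, a log2 ratio of -0.70; 490 well-measured genes had a lower one. Its other probe sets of high signal read 446, 482, 385 and 299 (1452211_at) and 248, 263, 248 and 155 (1426824_at), and the 3 gave -0.70, -0.58 and -0.68 at 12 h. Psmf1, encoding the inhibitor PI31, read 215, 199, 188 and 209.9, with a ratio of -0.03 at 12 h; a second probe set of high signal gave 0.29, so the gene has no settled direction.

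**Figure D2:**
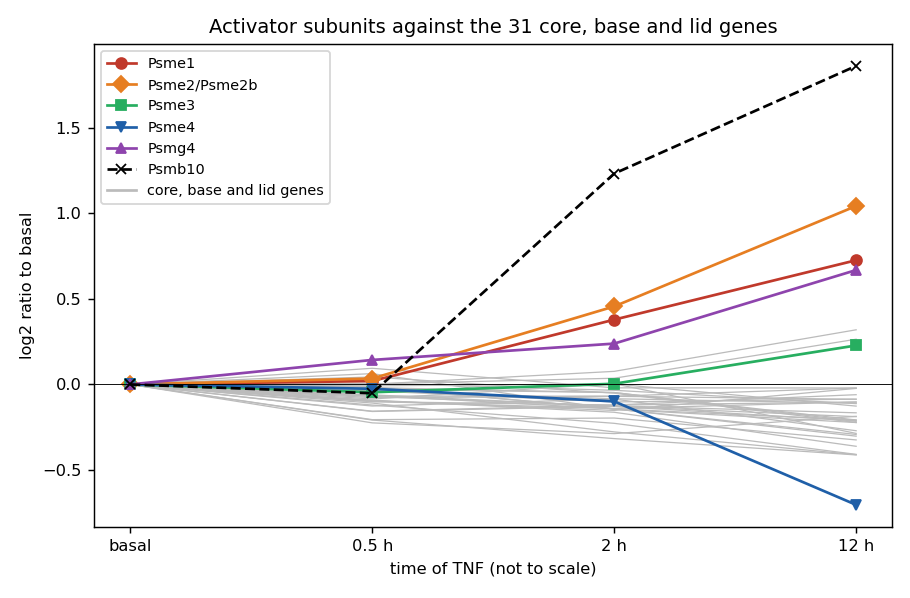
Log2 ratio to basal (vertical axis) on the 4 arrays (horizontal axis, evenly spaced and not to time scale) for the activator genes, Psmg4 and Psmb10, a gene outside the rule, with the 31 core, base and lid genes as grey lines. The lines of Psme1 and Psme2/Psme2b lie in the grey band at 0.5 h, that of Psmg4 (0.14) just above it; they reach 0.73, 1.04 and 0.67 at 12 h, and Psme4 leaves it downward to -0.70.

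The catalytic subunits of the standard core held their level. Psmb5, which carries the chymotrypsin-like activity, read 1668, 1591, 1590.3 and 1644 on the basal, 0.5, 2 and 12 h arrays. Psmb6, of the caspase-like activity, read 1468, 1568, 1448 and 1447. Psmb7, of the trypsin-like activity, read 4083, 4060.4, 4091 and 3740.3. Their log2 ratios at 12 h were -0.02, -0.02 and -0.13, all above the well-measured median of -0.21. Their inducible counterparts, which take the same places in the immunoproteasome, gave other values. Psmb10, which replaces Psmb7, read 159, 153, 373 and 577, a log2 ratio of 1.86 at 12 h, and Psmb8, which replaces Psmb5, was under the floor in basal cells and read 13.7 at 2 h and 23.6 at 12 h, at least 2.6-fold higher. A second probe set of Psmb8 (1444619_x_at) was under the floor on all 4 arrays, so the Psmb8 ratio rests on 1 probe set of low signal. Psmb9, which replaces Psmb6 and is a member by the rule, read 4.3, 13.7, 16.4 and 4.29, so it was above the floor of 9.08 at 0.5 and 2 h and under it on the other arrays. At these signals the ratios of Psmb9 (at least 1.51-fold and 1.8-fold) have no weight of their own. The tissue-specific subunits stayed near or under the floor on every array. Psma8 read 4.88, 4.5, 11.1 and 5.07, and Psmb11 read 11.5, 10.2, 9.95 and 2.56. Psmb5, the neighbour of Psmb11 on chromosome 14, was well measured.

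The alpha ring, which gates the core, had a median log2 ratio of -0.04 at 0.5 h, -0.13 at 2 h and -0.22 at 12 h over its 7 genes. Psma1 read 1658, 1435, 1331 and 1246, lower on each later array, with a ratio of -0.41 at 12 h. Psma6 read 3529, 3536, 3619 and 4239, higher on each later array and 0.26 above basal at 12 h. The direction of Psma6 rests on which probe set is read: its second (1416506_at) gave 0.41, and another (1435317_x_at), which passed the high-signal level narrowly, went from 129 to 72.9, a ratio of -0.83. The other 5 alpha genes lay between -0.41 (Psma4) and -0.11 (Psma5). The 4 structural beta genes, Psmb1 to Psmb4, had a median of -0.13 at 12 h, from -0.21 for Psmb3 (1518, 1489, 1469 and 1314) to -0.02 for Psmb4 (3630.1, 3397, 3267 and 3572).

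Base and lid genes followed the array median. The 6 ATPases, Psmc1 to Psmc6, which unfold substrates, had a median of -0.10, -0.14 and -0.25 at the 3 times. Psmc3 read 2228, 2090.5, 1990.1 and 1734, the lowest ratio of the ATPases at 12 h (-0.36), and Psmc2 read 3455, 3224, 3134 and 3217, the highest (-0.10). Of the other base subunits, the scaffolds Psmd1 and Psmd2 and the ubiquitin receptor Psmd4, Psmd2 went from 2049.8 to 2025, 1857 and 1674 (-0.29 at 12 h), while Psmd1 read 1407, 1371, 1311 and 1326 (-0.09). The 8 lid genes had a median of -0.09, -0.12 and -0.20. Psmd14, encoding the deubiquitinase that cuts the ubiquitin chain off, lay at -0.09 at 12 h. Psmd7, its partner in the lid, read 1339, 1242, 1105 and 1007 (-0.41). Psmd8 read 1307, 1308, 1378 and 1631 and was the 1 lid gene above basal at 12 h (0.32, just under the small size); the array gave it 1 probe set.

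Set together, the 14 core, 9 base and 8 lid genes had medians of -0.15, -0.22 and -0.20 at 12 h, and 18 of the 31 lay above the well-measured median. The 31 ratios had a scaled median absolute deviation of 0.15 at 12 h, where the 2854 named genes of the same signal range had 0.24 around a median of -0.22. At 2 h these deviations were 0.08 and 0.14, with medians of -0.12 and -0.11. The comparison genes share the range of signal and were not matched to the members within it, and the part of signal in the narrower spread was not tested. Over time, 13 of the 42 well-measured members were lower on each later array (31%), against 24.7% of well-measured genes, and 5 were higher on each later array, Psma6, Psmd8, Psmd10, Psme1 and Psmg4 (11.9%, against 2.21%). Of these 5, Psma6 has probe sets of high signal that differ in direction at 12 h. The others have a single probe set of high signal each, so no second such probe set checks their order. The basal array was the highest of the 4 for 29 of the 42 members (69.0%) and for 48.5% of well-measured genes. The 12 h array was the lowest for 57.1% of members and 56.8% of well-measured genes, so that order did not set the members apart. The array medians also run downward with time, as the 13 genes do and the 5 do not, and the part of that shift was not tested.

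Chaperones that build the particle held several of the higher ratios. Psmg4, 1 of 4 chaperones of core assembly, read 197, 218, 232 and 313, higher on each later array and 1.59-fold above basal at 12 h (0.67), with 100 well-measured genes above it. Psmg3, its partner, read 266, 249.9, 378 and 306, and so was highest at 2 h (0.51, 1.42-fold). Psmg1 and Psmg2, which form the other chaperone pair, lay at -0.12 and -0.15 at 12 h. Psmg2 read 507.7, 500, 505 and 458, and its second probe set of high signal gave 0.15 at 12 h. Among the chaperones of the base, Psmd10 (gankyrin) read 448, 463, 479 and 614, a ratio of 0.45 at 12 h from a single probe set. Psmd5 read 729, 691, 619 and 726, and Psmd9 read 227, 226, 187 and 209.5. Both were lowest at 2 h, with ratios of -0.24 and -0.28, and lay at -0.01 and -0.12 at 12 h.

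Further probe sets gave a check within each array. Of 15 members with more than 1 probe set of high signal, all of a gene's ratios had the same sign for 10 on the 0.5 h array, 12 on the 2 h array and 11 on the 12 h array. That shared sign was negative in every case. The array medians were also negative (-0.05, -0.12 and -0.20), so a shared sign may reflect the array as much as the gene. Signs relative to the array median were not counted. The range between a gene's probe sets at 12 h had a median of 0.12 (log2), and it was widest for Psma6 (1.24). The exceptions at 12 h were Psma6, Psmb4, Psmf1 and Psmg2. Probe sets of one gene share the RNA and the array, so they show the error of the probes and not that between cultures.

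**Figure D3:**
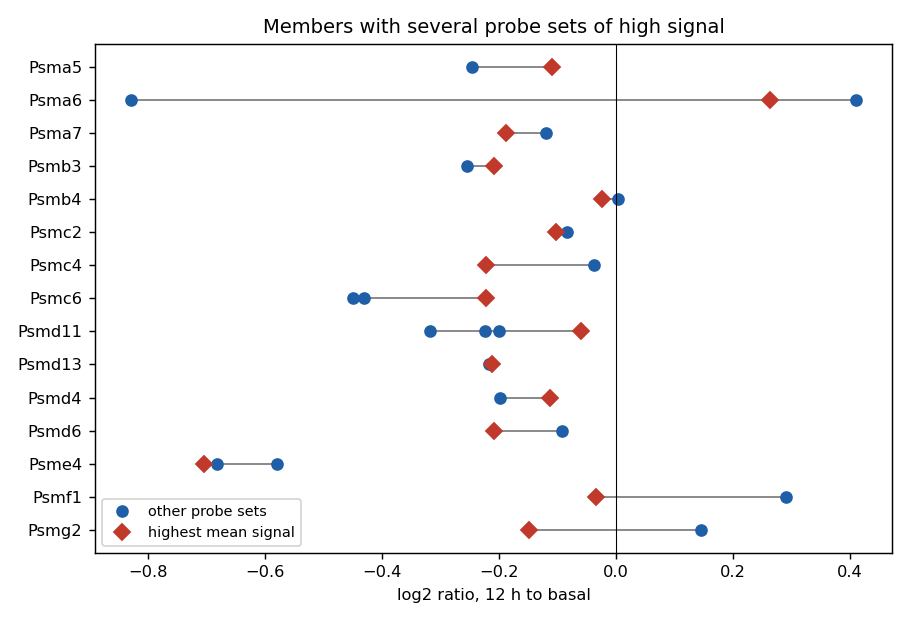
Log2 ratio of 12 h to basal for every probe set of high signal of the 15 members that have more than 1, the diamond being the probe set that represents the gene and the grey line the range. The 3 probe sets of Psme4 lie between -0.70 and -0.58, and those of Psma6 between -0.83 and 0.41.

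Partners of the proteasome with other names, from a fixed list of subunits and regulators, gave 5 measured genes with a median of -0.36 at 12 h, 0 higher and 3 lower by the small size, the size by which 34.4% of well-measured genes were lower. Usp14 and Pomp did not reach it. Uchl5, a deubiquitinase that docks on the base, read 612, 490.2, 446 and 330.2 and had a ratio of -0.89. Ecpas, an adaptor that joins the core to its cap, read 164, 133, 158 and 112 (-0.55). Sem1, the small lid subunit, read 3533, 3249, 2951 and 2757 (-0.36). The 6 regulators of proteasome genes had a median of 0.10 at 12 h. Maff, a small Maf partner of the Nfe2l factors, read 159, 220.1, 222 and 199, with 0.47 already at 0.5 h. Ngly1, which activates Nfe2l1, had a ratio of -0.36, and Nfe2l1 itself read 246, 305, 291 and 286 (0.22 at 12 h). The 5 ubiquitin shuttles and receptors had a median of -0.19, led by Ubqln4 (-0.36) and Ubqln2 (-0.25), and 1 of the 5 was lower by the small size (against the same 34.4%). Of the 5 genes of the Vcp segregase, which pulls substrates out of complexes, 1 was also lower by it, Vcp itself at -0.34; Faf2 lay at -0.20. Of the listed activating enzymes, Uba6, which activates ubiquitin, lay at -0.39. Uba7, which activates the interferon-induced modifier Isg15 instead, went from 16.2 to 33.9 at low signal (1.07).

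Other complexes of many subunits offer a comparison of shifts. The COP9 signalosome and eIF3 share their subunit architecture with the lid, and the CCT chaperonin is a barrel that folds proteins. Their medians at 12 h were -0.14 (9 genes), -0.10 (11 genes) and -0.14 (8 genes), against -0.19 for the core, base and lid of the proteasome. Within the signalosome Cops2 and Cops3 had the lowest ratios (-0.53 and -0.52); the probe sets of Cops2 ran from -0.53 to -0.13. Within eIF3 the ratios ran from -0.70 (Eif3a, probe sets from -1.15 to -0.44) to 0.41 (Eif3c, probe sets from -0.14 to 0.42). Within CCT Tcp1 (-0.28) and Cct7 (-0.20) were lowest. The ranges of the genes within the 4 complexes overlap, and no test was possible with 1 array per time.

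**Figure D4:**
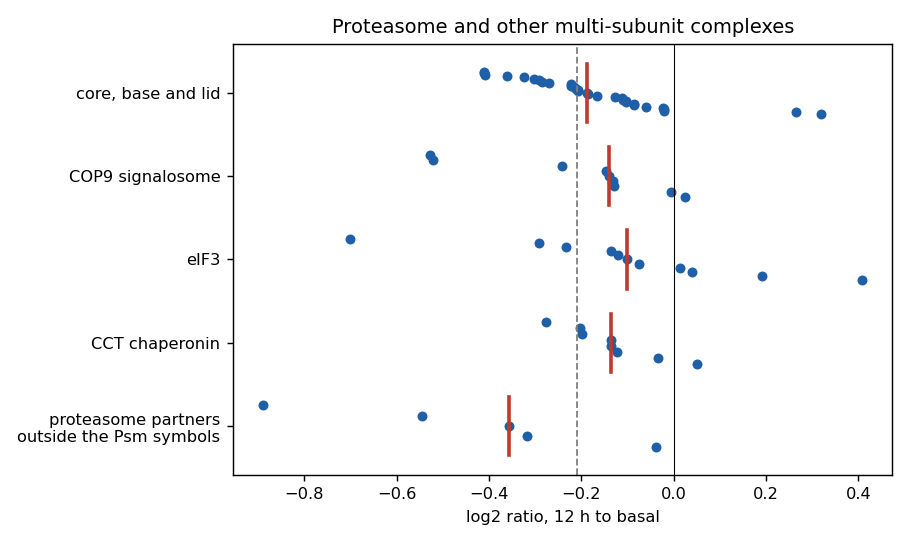
Log2 ratio of 12 h to basal for each gene (points) of the proteasome's core, base and lid, of 3 other complexes and of proteasome partners, with the median of each set as a red bar and that of well-measured genes as a dashed line. The bars of the proteasome (-0.19), COP9 signalosome (-0.14), eIF3 (-0.10) and CCT (-0.14) lie close together, and that of the partners at -0.36.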

How the data were processed

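RNA of 4 samples, 1 per group by the sample labels, was hybridised to Affymetrix 430 2.0 arrays from 8 µg of total RNA, per the labels' protocols. The authors deposited 1 intensity for each probe set on a linear scale; which signal algorithm or scaling they used is not given in the sources used here. The annotation named 1 gene for 34958 of 45101 probe sets several for 932 and none for 9211; probe sets with several genes and 64 control probe sets were not used to name a gene. All 45 member symbols were found in the RefSeq table (GRCm38.p6). Signals under the 30th percentile were raised to it, log2 ratios to basal were taken, and a gene was its probe set of highest mean log2 signal. Counts used 2-fold and a log2 ratio of 0.32. Values on all arrays were given for activators, inhibitor, catalytic and alternative subunits and the extremes of each role at 12 h. For context lists other than the check of the TNF response, the 2 genes of largest absolute ratio at 12 h were named. Other values are named beyond that rule after they were seen. Members, lists and alternatives were chosen with earlier results of these data known. Loess used a fraction of 0.3 (statsmodels 0.14.6). The steps were tested on simulated data. The simulation planted changes larger than 2-fold in genes of high signal, with less noise than the scatter of the real ratios. It did not test ratios near the small size or signals near the floor. Precision is limited by the number of arrays.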

Additional observations from a re-analysis of the deposited data

How the results depend on the processing

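Of 240 values recomputed under 13 alternatives, 196 were counted as kept and 44 as moved. Counts were kept within a factor of 1.5, medians and ratios short of 2-fold within 0.1 on the log2 scale, and a ratio past 2-fold (Psme2/Psme2b at 12 h) where it stayed past 2-fold in the same direction. A count could be kept although other genes made it up, so the tally does not measure whether the same members were called. Ratios were followed this way for Psme1 and Psme2/Psme2b alone. Each rests on 1 probe set with signals above every floor tried. Changes of the floor or of the probe set choice therefore could not move these ratios, and the tally counts them as kept. Scaling moved the values at 12 h. With median centring, quantile normalization and loess, the median of the members turned from -0.12 to 0.0035, 0.022 and 0.029, the ratio of Psme1 0.88, 0.96 and 0.95, and the counts past the small size 7 higher and 1 lower each time. At 2 h quantile normalization and loess gave 5 members higher by that rule and Psme1 ratios of 0.49 and 0.49, and loess gave 0.56 for Psme2/Psme2b. With the floor at the 20th percentile or no floor, 1 member passed 2-fold upward at 0.5 h, 2 at 2 h and 1 downward at 12 h, with the lower floor Psmb9, Psma8 with Psmb9, and Psmb11, all of low signal. With the floor at the 50th or 75th percentile, or with members of high signal (added after seeing the data), 0 were past the small size upward at 0.5 h. The mean of all probe sets, which lets in probe sets of low signal, gave 1 member past 2-fold downward at 0.5 h, 1 at 2 h and 2 at 12 h, and 1 upward at 12 h; past the small size it gave 3 higher and 2 lower at 0.5 h and 7 higher and 3 lower at 2 h. Without probe sets ending in _x_at, _s_at or _a_at, 2 were higher by the small size at 0.5 h, 1 lower at 2 h and 5 higher at 12 h; Psmd13 was among those higher at all 3 times, against ratios of -0.16, -0.13 and -0.21 from its chosen probe set. The mean of all probe sets likewise put Psma5 and Psmd9 among those higher at 0.5 h, against -0.04 and -0.01, and Psma5, Psmd9 and Psmd13 at 2 h, against -0.08, -0.28 and -0.13. At 12 h this mean gave 4 higher and 10 lower by the small size, both counted as kept. Psma1, Psmd7 and Psme4 were then not among those lower. With probe sets of several genes 1 more entry, the shared Psme2/Psme2b probe set, was past 2-fold at 12 h. A 1.5-fold rule gave 1 higher at 0.5 h, 1 at 2 h, and 2 higher and 1 lower at 12 h. Shares over all genes were counted for the settings of the Results, at 2-fold and the small size, and for median centring, at the small size. Counts under the other alternatives have no such share beside them and cannot be told from the background. Where no construction shows it, the cause was not tested. No paired analysis was possible because each group has 1 array, and low signals limit Psma8, Psmb9 and Psmb11.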
